A study of Mus musculus with 4 samples.

Results

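The Zfp-named zinc finger genes are the protein-coding genes whose symbol is Zfp followed only by digits and which are listed in both deposited expression tables. Zfp36, a gene of another zinc finger class that binds and destabilises mRNA, was left out by the rule. There are 217 such members among 11822 genes listed in both tables, and all 217 passed the filter of a mean of at least 1 RPKM (reads scaled by gene length and library size) that left 11757 genes for testing. The first table lists 322 genes that fit the symbol rule and the second lists 217, so 105 are found in the first only.

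Transcript levels were measured by sequencing of polyadenylated RNA from mature dendritic cells (maDC). They were grown from C57BL/6 mouse bone marrow, at an age of 6 weeks, in medium with 10 ng/ml GM-CSF plus 1 ng/ml IL-4, enriched on CD11c beads and matured for 24 h in 100 ng/ml LPS. The 2 Mettl3KO libraries come from Mettl3 fl/fl mice with a CD11c-Cre transgene, which cuts out Mettl3 exons 2 to 4 where CD11c is active, and the 2 Mettl3WT libraries from littermates that, by the study's naming, have the floxed gene without Cre. Effects of the transgene and of Mettl3 loss cannot be told apart. Knockout and wild-type littermates form 2 pairs, here pair 1 and pair 2, so n is 2 pairs in every comparison. Each pair has its own table, normalised separately. In pair 1 the libraries also differ in sex-linked transcripts, so sex and genotype cannot be told apart there. The CD11c promoter drives Cre only in cells that have switched on CD11c, and in bulk RNA fewer cells of a type and less RNA per cell cannot be told apart.

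Most of these genes encode proteins of the C2H2 class, in which pairs of cysteine and histidine residues hold a zinc ion and strings of such fingers read DNA sequence. Many also begin with a KRAB box, a short domain that recruits Trim28 and, through it, the histone methyltransferase Setdb1, so that the bound DNA is packed into silent chromatin. KRAB zinc finger genes lie in tandem arrays, and many of their products hold retroelements or imprinted regions silent. Mettl3 is the catalytic subunit of the complex that places N6-methyladenosine (m6A) on mRNA, and mRNAs of zinc finger genes are known to be rich in m6A. The comparison therefore asks whether the levels of these mRNAs differed in maDC without Mettl3.

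The coding sequence itself differs widely in base composition between members. One finger is shown for 2 members with AT-rich transcripts and 2 with GC-rich ones, from GENCODE M21 transcripts on GRCm38, as the first finger that is followed by another at the usual spacing. Capitals mark the codons of the cysteine and histidine residues that bind zinc.
Zfp758: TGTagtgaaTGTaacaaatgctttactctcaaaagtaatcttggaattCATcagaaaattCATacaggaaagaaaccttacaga
Zfp944: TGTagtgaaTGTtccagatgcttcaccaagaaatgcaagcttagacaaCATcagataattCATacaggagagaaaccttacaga
Zfp579: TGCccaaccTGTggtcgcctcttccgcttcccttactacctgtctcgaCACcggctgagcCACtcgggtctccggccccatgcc
Zfp784: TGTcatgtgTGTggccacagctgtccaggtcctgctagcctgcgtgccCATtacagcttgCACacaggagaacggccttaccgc
The stretches lie at chr17:22375249-22375332 on the plus strand and at chr17:22339629-22339712, chr7:4994686-4994769 and chr7:5036171-5036254 on the minus strand, all in coding exons. Their G and C bases make up 30.95% in Zfp758, 38.1% in Zfp944, 65.5% in Zfp579 and 59.5% in Zfp784.

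Members of the array on chromosome 17 with lower values in Mettl3KO of pair 1 include 2 divergent gene pairs, Zfp942 with Zfp943 and Zfp944 with Zfp758, which start back to back. Zfp942 and Zfp943 are 94 bases apart, and the annotated starts of Zfp944 and Zfp758 overlap by 26 bases. The 250 bases before the RefSeq starts of Zfp942 and Zfp944 are shown because they are nearly the same sequence, from RefSeq on GRCm38.p6, minus strand. RefSeq's start of Zfp944 lies inside the gene as the deposited tables bound it, so the stretch shown covers some of that gene. Both stretches also run into the divergent partner, as Zfp943 starts at 21962559 and Zfp758 at 22361453. Capitals mark the E-box CACGTG and the motif CCGGAA, searched on both strands.
Zfp942: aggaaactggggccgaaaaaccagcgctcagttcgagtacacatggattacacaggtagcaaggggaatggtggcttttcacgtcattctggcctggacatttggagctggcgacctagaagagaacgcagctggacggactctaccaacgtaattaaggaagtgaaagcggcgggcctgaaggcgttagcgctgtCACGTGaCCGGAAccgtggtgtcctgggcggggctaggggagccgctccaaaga
Zfp944: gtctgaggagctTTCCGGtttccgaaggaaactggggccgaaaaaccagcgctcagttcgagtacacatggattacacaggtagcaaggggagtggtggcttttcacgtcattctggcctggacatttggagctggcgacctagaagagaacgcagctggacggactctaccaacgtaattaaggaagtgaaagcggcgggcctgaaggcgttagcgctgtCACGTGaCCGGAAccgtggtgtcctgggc
The first lies at chr17:21962465-21962714 and the second at chr17:22361401-22361650. They share 196 of 236 words of 15 bases. Among the 27025 genes with a promoter in the table, the same sequence (at least 30 of these words on either strand) is found before the starts of just 4 genes, the 2 divergent pairs. Partners that start back to back can match through the same stretch of DNA, so the 4 genes stand for 2 loci. CACGTG is in 5.93% of all promoters of this length, in 8.79% of those of protein-coding genes tested and in 5.46% of the 183 member promoters that matched by symbol. CCGGAA is in 12.3%, 24.6% and 31.7%. It is in 37.4% of the 99 promoters of KRAB members and in 21 of the 84 promoters of the others. Matches of letters are a description and not a binding site.

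Levels of the members were low to moderate. Their median was 5.38 RPKM in Mettl3WT and 4.88 in Mettl3KO of pair 1, and 3.69 and 3.52 RPKM in pair 2. Over the 4 libraries 124 members had a mean below 5 RPKM and 12 a mean of at least 20 RPKM. Replicate 2 was lower than replicate 1 in 178 of 217 members of Mettl3WT and in 177 of Mettl3KO, against 51.6% and 57.2% of all genes tested. The median difference on the log2(RPKM + 1) scale was -0.36 and -0.33, against -0.023 and -0.12 for all genes, so the members stood lower in replicate 2 in both genotypes. The tables were normalised separately, and this difference between them was not tested.

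The 5 members with the highest mean were Zfp949, Zfp445, Zfp217, Zfp706 and Zfp524. Here and below the value in Mettl3WT is given against that in Mettl3KO. Zfp949, a KRAB member with 11 fingers, had 58.1 against 51.8 RPKM (pair 1) and 26.6 against 25.1 RPKM (pair 2). Zfp445, a KRAB protein that keeps imprinted regions methylated in the mouse, had 45.9 against 39.1 RPKM (pair 1) and 19.4 against 21.9 RPKM (pair 2). Zfp217, a partner of histone-modifying corepressors that holds Mettl3 away from transcripts in mouse embryonic stem cells, had 42.03 against 42.4 RPKM (pair 1) and 18.6 against 15.1 RPKM (pair 2). In these 3 the libraries of a pair lay closer together than the same genotype in the 2 pairs. Zfp706, a small protein with 1 finger, had 25.4 against 24.8 RPKM (pair 1) and 25.1 against 28.8 RPKM (pair 2). Zfp524 had 17.8 against 26.1 RPKM (pair 1) and 28.2 against 27.5 RPKM (pair 2), and 46.0% of the 50-base words of its transcript also occur in transcripts of other genes, so its reads could be shared.

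No member passed the test of Mettl3KO against Mettl3WT. With limma on log2(RPKM + 1), the pair as a block and Benjamini-Hochberg adjustment over all 11757 genes, 0 of 217 members were called higher and 0 lower at a threshold of 0.05, against 0.0425% of all genes, which is 5 genes (0.017% higher and 0.0255% lower). The lowest adjusted p of a member, from limma, was 0.770, for Zfp758. At an unadjusted p under 0.05 there were 3 members, all lower (Zfp579, Zfp213 and Zfp758), which is 1.38% against 5.56% of all genes. The standard error of a member's log2 change was 0.21 at the median (range 0.18 to 0.29), so small differences were not detectable with 2 pairs. Mettl3 itself stood at 5.31 against 4.59 RPKM (pair 1) and 5.10 against 4.39 RPKM (pair 2), and limma gave it a log2 difference of -0.18 ± 0.21 (SE) with an adjusted p of 0.994. RPKM over the whole gene counts reads outside the 3 deleted exons too, so this checks the labels poorly.

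In each pair more members were lower than higher in Mettl3KO, as were more of all genes tested. In pair 1, 143 of 217 were lower, or 65.9%, against 53.3% of all genes tested and 54.8% of protein-coding genes. In pair 2, 138 were lower, or 63.6%, against 58.3% and 59.4%. Their median log2 ratio (pair 1, then pair 2) came to -0.077 and -0.077, and the median over all genes came to -0.017 and -0.077, so in pair 2 the members' median lay at that of all genes. In both pairs 84 members were lower, or 38.7% against 30.8% of all genes, and 20 were higher, or 9.2% against 19.1%. The other 113 went in opposite directions, 59 lower in pair 1 only and 54 lower in pair 2 only. Across the 217 members the ratios of the 2 pairs correlated with r = -0.16, a description over genes that share their libraries, against 0.041 across all genes.

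The changes of single members were smaller in spread than those of all genes. The SD of the log2 ratios over members was 0.20 in pair 1 and 0.32 in pair 2, against 0.29 and 0.49 over all genes and 0.26 and 0.44 over protein-coding genes. Members had a median level of 4.50 RPKM against 10.5 RPKM in protein-coding genes, and the added 1 RPKM shrinks the ratios of low genes more. Genes at 1 RPKM or below in either library of pair 2 are also missing, which bounds the changes that low genes can show. The part of either in the smaller spread was not tested. A change of at least 1.5-fold in (RPKM + 1) was seen in pair 1 in 0 members upwards and in 4 downwards (Zfp52, Zfp758, Zfp944 and Zfp950), against 2.57% and 1.86% of all genes. In pair 2 it was seen in 2 members upwards, Zfp958 and Zfp91, and in 16 downwards, against 6.46% and 10.9%. Of the 10027 protein-coding genes tested, 188 passed it upwards and 148 downwards in pair 1, and 480 and 970 in pair 2. No member passed it in the same direction in both pairs, against 0.731% of all genes upwards and 0.476% downwards, and none in opposite directions, against 0.774%. Both Mettl3KO libraries lay below both Mettl3WT libraries in 17 members, or 7.83% against 10.2% of all genes, and above them in 7, or 3.23% against 4.7%.

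**Figure D1:**
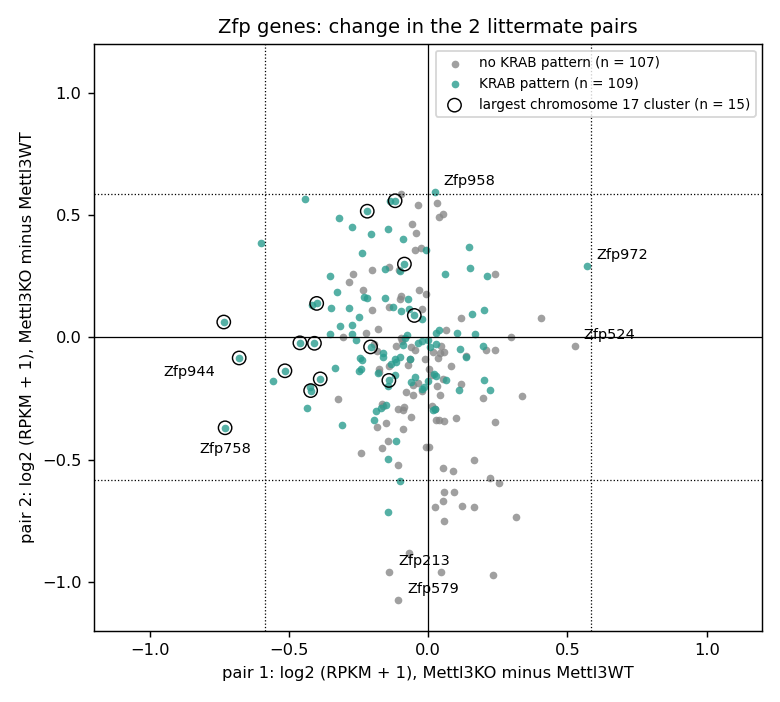
Log2 difference in RPKM + 1 between Mettl3KO and Mettl3WT of each member in pair 1 (x axis) and pair 2 (y axis), coloured by the presence of a KRAB pattern, for the 216 members with a matched transcript. Dotted lines mark 1.5-fold, circles mark the 15 genes of the largest cluster on chromosome 17, and no point lies beyond the dotted lines in both pairs.

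Among members lower in both pairs, the 8 with the largest fitted differences were Zfp579, Zfp213, Zfp758, Zfp523, Zfp934, Zfp944, Zfp811 and Zfp266. Zfp579 had 8.13 against 7.47 RPKM (pair 1) and 7.56 against 3.07 RPKM (pair 2). Its fitted log2 change was -0.59 ± 0.26 (SE), and nearly all of it came from pair 2, where Mettl3KO was at 40.6% of Mettl3WT. Zfp213 had 3.22 against 2.82 RPKM (pair 1) and 3.04 against 1.08 RPKM (pair 2), with a fitted change of -0.55 ± 0.23, again from pair 2. Zfp758, a KRAB member with 12 fingers, had 6.11 against 3.29 RPKM (pair 1) and 4.38 against 3.17 RPKM (pair 2) and a fitted change of -0.55 ± 0.21. It was the member nearest to 1.5-fold lower in both pairs, with log2 ratios of -0.73 and -0.37. Its divergent neighbour Zfp944 had 8.56 against 4.98 RPKM (pair 1) and 7.77 against 7.27 RPKM (pair 2), so its difference lay in pair 1. The 2 divergent genes were thus lower together in pair 1. Zfp523, a close relative of the promoter-binding factor Zfp143, had 4.22 against 3.98 RPKM (pair 1) and 7.58 against 3.66 RPKM (pair 2). Zfp934 had 2.66 against 2.31 RPKM (pair 1) and 2.50 against 1.13 RPKM (pair 2), and 44.1% of its words are shared with other genes. Zfp811 had 5.61 against 3.49 RPKM (pair 1) and 2.45 against 2.04 RPKM (pair 2), and Zfp266 had 6.52 against 4.56 RPKM (pair 1) and 2.79 against 2.11 RPKM (pair 2), both KRAB members.

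Among members with higher values in both pairs, the 8 with the largest fitted differences were Zfp972, Zfp958, Zfp281, Zfp277, Zfp488, Zfp688, Zfp503 and Zfp296. Zfp972 had 1.496 against 2.71 RPKM (pair 1) and 1.18 against 1.67 RPKM (pair 2) and a fitted change of 0.43 ± 0.19, with both Mettl3KO libraries above both Mettl3WT libraries. It is the member with the fewest reads, about 18.2 in the lowest library, and 58.4% of its words are shared with other transcripts. Zfp958 had 8.49 against 8.65 RPKM (pair 1) and 5.10 against 8.22 RPKM (pair 2), and Zfp277 had 7.65 against 7.97 RPKM (pair 1) and 5.39 against 8.06 RPKM (pair 2), so both were level in pair 1. Zfp488, a regulator of oligodendrocyte differentiation in the mouse, had 3.50 against 3.62 RPKM (pair 1) and 2.63 against 4.11 RPKM (pair 2). Zfp688, a KRAB member, had 5.38 against 6.05 RPKM (pair 1) and 5.86 against 7.85 RPKM (pair 2), and both Mettl3KO libraries again lay above both Mettl3WT libraries. The same held for Zfp281, Zfp277 and Zfp488. Zfp503 and Zfp296 complete the group. Zfp503, known from development of the striatum, had 1.35 against 1.78 RPKM (pair 1) and 1.91 against 2.48 RPKM (pair 2). Zfp296 had 9.53 against 12.95 RPKM (pair 1) and 8.04 against 8.56 RPKM (pair 2). None of these 16 members passed the test.

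A list of 28 Zfp genes with a described role held 25 members, none of which passed the test. In both pairs 10 of the 25 were lower and 1, Zfp281, was higher, beside 30.8% and 19.1% of all genes tested, and the median log2 ratio was -0.098 in pair 1 and -0.058 in pair 2. Among silencers of retroelements and imprinted genes, Zfp809, which silences integrated murine leukaemia virus in the mouse, had 15.9 against 14.3 RPKM (pair 1) and 9.91 against 13.8 RPKM (pair 2). Zfp568, which represses a placental Igf2 transcript in the mouse, had 4.42 against 5.22 RPKM (pair 1) and 2.09 against 1.74 RPKM (pair 2). With Zfp445 these 3 KRAB genes went in opposite directions in the 2 pairs.

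Some members are linked to immune signalling, lymphocytes or cell identity. Zfp91, a ubiquitin ligase that stabilises the NF-kB-inducing kinase, had 21.8 against 20.3 RPKM (pair 1) and 21.5 against 32.7 RPKM (pair 2), and its log2 ratios were -0.098 and 0.59. Zfp318, needed by B cells to make IgD from the long heavy-chain transcript, had 5.14 against 4.98 RPKM (pair 1) and 2.33 against 3.84 RPKM (pair 2). Zfp335, a nuclear factor required for T-cell maturation in the mouse, had 6.97 against 6.13 RPKM (pair 1) and 6.30 against 5.004 RPKM (pair 2), lower in both Mettl3KO libraries. Zfp281, a repressor of pluripotency genes in mouse embryonic stem cells, had 10.8 against 11.1 RPKM (pair 1) and 8.62 against 13.1 RPKM (pair 2). For Zfp91, Zfp318 and Zfp281 the difference lay in pair 2.

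Other genes of this list are known for roles on RNA or ribosomes. Zfp106, an RNA-binding protein needed by motor neurons in the mouse, had 28.4 against 23.9 RPKM (pair 1) and 19.1 against 13.5 RPKM (pair 2), lower in both pairs. Zfp622, a factor that matures the large ribosomal subunit, had 23.3 against 23.1 RPKM (pair 1) and 24.9 against 17.996 RPKM (pair 2). Zfp207, a spindle and splicing protein, had 24.3 against 22.3 RPKM (pair 1) and 18.7 against 18.2 RPKM (pair 2). Zfp598, the ubiquitin ligase that senses collided ribosomes, had 20.2 against 17.8 RPKM (pair 1) and 16.4 against 14.8 RPKM (pair 2), a difference of similar size in both pairs with log2 ratios of -0.18 and -0.14. These 4 were lower in both pairs. Zfp638, an RNA-binding protein that also silences unintegrated retroviral DNA in human cells, had 14.7 against 11.9 RPKM (pair 1) and 8.02 against 9.56 RPKM (pair 2). Zfp326, a subunit of a complex that links elongation to splicing, had 5.81 against 4.79 RPKM (pair 1) and 4.26 against 5.01 RPKM (pair 2), and Zfp346, which binds double-stranded RNA, had 7.33 against 6.84 RPKM (pair 1) and 5.39 against 4.25 RPKM (pair 2).

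The remaining genes of the list were split, with Zfp143, Zfp609, Zfp746 and Zfp110 lower in both pairs and Zfp148, Zfp644, Zfp592, Zfp687, Zfp410 and Zfp451 in opposite directions. Zfp143, which binds many promoters, had 6.68 against 5.71 RPKM (pair 1) and 4.20 against 4.10 RPKM (pair 2). Zfp148, which binds GC-rich promoter elements, had 6.37 against 5.84 RPKM (pair 1) and 3.43 against 4.36 RPKM (pair 2). Zfp644, a partner of the histone methyltransferase G9a, had 4.63 against 4.41 RPKM (pair 1) and 2.54 against 3.88 RPKM (pair 2). Zfp592 and Zfp687 act in 1 chromatin complex, and Zfp592 had 6.68 against 6.88 RPKM (pair 1) and 5.78 against 4.36 RPKM (pair 2) while Zfp687 had 9.18 against 9.50 RPKM (pair 1) and 7.19 against 6.83 RPKM (pair 2). Zfp410, known for activating the gene Chd4, had 4.72 against 4.95 RPKM (pair 1) and 4.26 against 4.05 RPKM (pair 2). Zfp148 and Zfp644 were higher in pair 2, and Zfp592, Zfp687 and Zfp410 in pair 1. Zfp609, a partner of the Integrator complex, had 4.80 against 4.52 RPKM (pair 1) and 2.05 against 1.82 RPKM (pair 2), and Zfp451, a SUMO ligase, had 6.47 against 5.4001 RPKM (pair 1) and 2.88 against 2.93 RPKM (pair 2). Zfp746, a repressor of PGC-1alpha, had 11.97 against 11.2 RPKM (pair 1) and 9.58 against 7.17 RPKM (pair 2), and Zfp110, which binds the neurotrophin receptor p75, had 17.8 against 14.9 RPKM (pair 1) and 11.2 against 10.4 RPKM (pair 2).

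**Figure D2:**
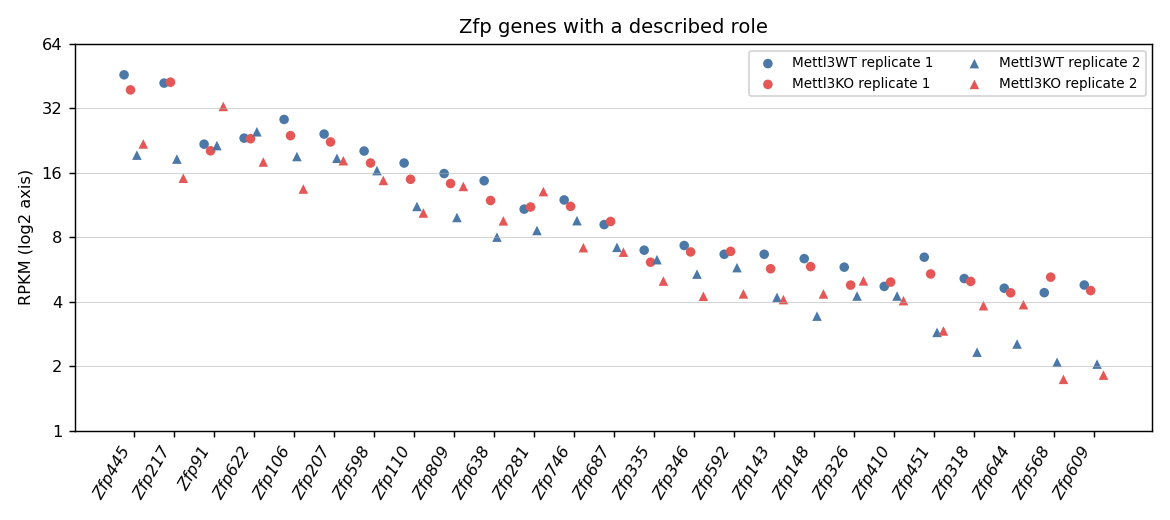
RPKM (log2 axis) of the 25 members with a described role in the 4 libraries, ordered by mean level. Blue marks Mettl3WT, red marks Mettl3KO, circles are pair 1 and triangles pair 2, and in the 2 highest genes the circles stand well above the triangles of either colour.

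An array of members on chromosome 17 had lower values throughout in Mettl3KO of pair 1. With members under 500 kb apart joined, 8 clusters of at least 5 members held 75 of the 217 genes. The largest, on chromosome 17 from 21008941 to 22867289 (mm10), held 15 members, all with a KRAB pattern and all with a transcript GC below 42% (35.3% to 40.7%). In pair 1 all 15 were lower in Mettl3KO, with a median log2 ratio of -0.40 and a range of -0.73 to -0.050. In pair 2, 9 were lower and 6 higher, with a median of -0.024 and a range of -0.37 to 0.56.

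Single genes of this cluster show the pattern in the libraries. Zfp52 had 9.38 against 5.24 RPKM (pair 1) and 6.45 against 6.78 RPKM (pair 2), the lowest log2 ratio of any member in pair 1 at -0.73, against 0.063 in pair 2. Zfp160 had 13.5 against 10.1 RPKM (pair 1) and 6.25 against 5.45 RPKM (pair 2). The divergent partners Zfp942 and Zfp943 had values close to each other, with 11.4 against 7.69 RPKM (pair 1) and 6.17 against 5.52 RPKM (pair 2) for Zfp942 and 9.18 against 6.40 RPKM (pair 1) and 6.06 against 5.95 RPKM (pair 2) for Zfp943. Their log2 ratios were -0.51 and -0.14 and -0.46 and -0.022, and those of the other pair with the same promoter sequence were -0.68 and -0.084 for Zfp944 and -0.73 and -0.37 for Zfp758. Zfp53 and Zfp946 were lower in pair 1 but higher in pair 2, where Mettl3WT and Mettl3KO stood at 3.13 and 5.09 RPKM for Zfp53 and at 2.26 and 3.66 RPKM for Zfp946.

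The cluster was set beside members of the same kind elsewhere. The 46 other KRAB members with a transcript GC below 42% had medians of -0.16 in pair 1, where 39 were lower, and 0.062 in pair 2, where 18 were lower. Without the cluster the median of the remaining 202 members was -0.063 in pair 1 and -0.081 in pair 2. Of the 3 other protein-coding genes tested inside its bounds, 2 were lower in pair 1, with a median of -0.26. Shared sequence in this cluster was 10.4% of words or less for each of the 15 members.

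**Figure D3:**
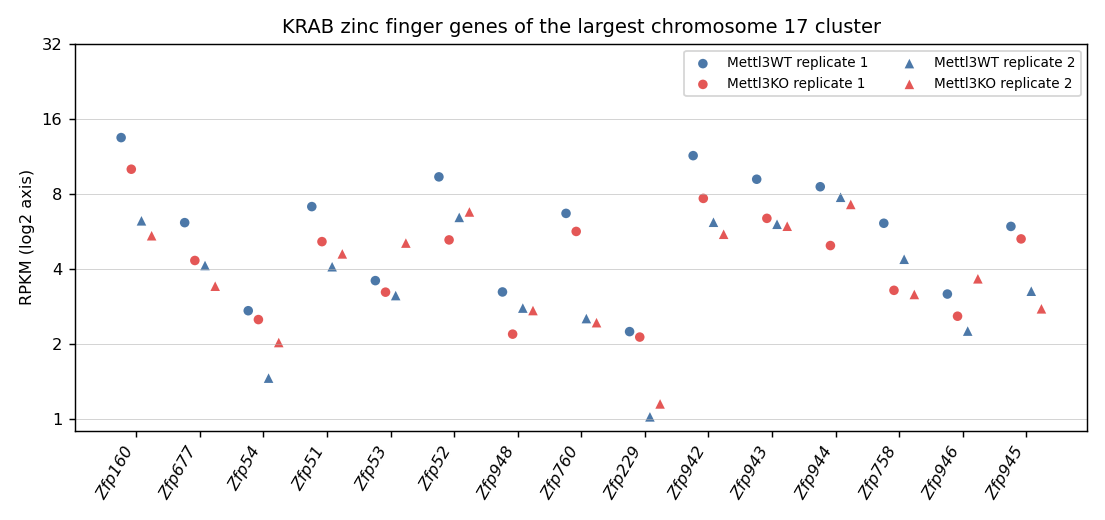
RPKM (log2 axis) of the 15 members of the largest chromosome 17 cluster in the 4 libraries, in genomic order. Blue marks Mettl3WT, red marks Mettl3KO, circles are pair 1 and triangles pair 2, and the red circle lies below the blue circle in every gene while the triangles lie both ways.

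In the 3 clusters with a median GC above 50% the lower values lay mostly in pair 2. A cluster of 6 members on chromosome 7 (4915173 to 5053723), without KRAB patterns and with a median GC of 61.2%, had a median of 0.15 in pair 1 and -0.44 in pair 2, where all 6 were lower. Its members include Zfp579, given above, and Zfp784, which had 4.62 against 4.81 RPKM (pair 1) and 4.57 against 1.86 RPKM (pair 2). Zfp865 had 10.6 against 11.4 RPKM (pair 1) and 10.1 against 6.18 RPKM (pair 2). A cluster of 8 on chromosome 6, with a median GC of 55.8%, had medians of 0.0026 and -0.18, with 8 of 8 lower in pair 2. Another on chromosome 7 (127233255 to 127885996), of 10 members with a median GC of 53.8%, had medians of 0.048 and -0.18, with 8 of 10 lower in pair 2. An array of 11 KRAB members on chromosome 13, with a median GC of 39.1%, had medians of -0.12 and -0.049, and 8 were lower in pair 1. The second cluster on chromosome 17, with 10 members, had medians of -0.14 and -0.10.

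**Figure D4:**
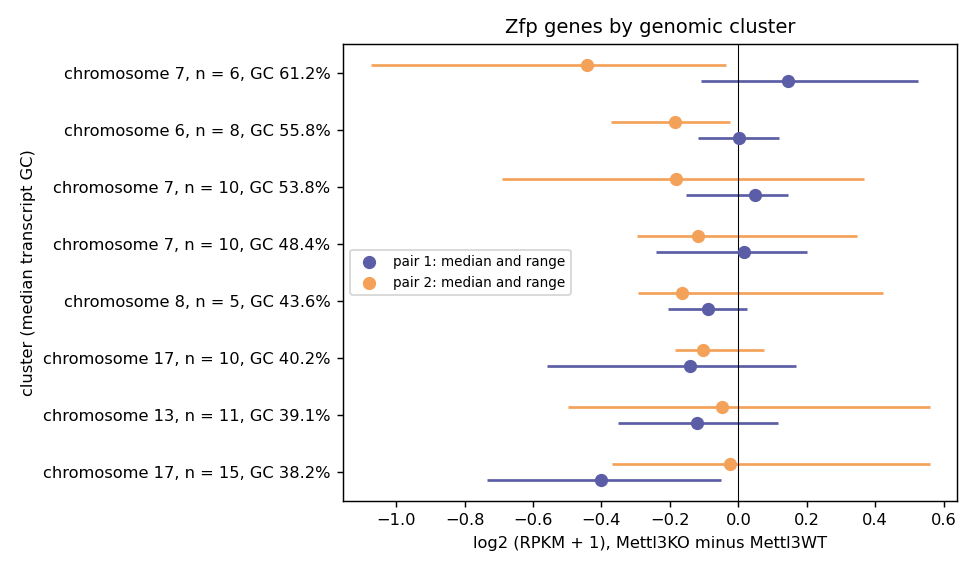
Median (points) and range (lines) of the log2 difference in RPKM + 1 between Mettl3KO and Mettl3WT over the members of each of the 8 clusters, pair 1 in blue and pair 2 in orange, with clusters ordered by median transcript GC. The lowest-GC cluster, at the bottom, has the lowest pair 1 median (-0.40) and the highest pair 2 median (-0.024), and the highest-GC cluster has the reverse (0.15 and -0.44).

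A KRAB pattern (14 key residues of the box, at most 4 differing) was found in 109 members and not in 107, and no transcript was matched for Zfp607. No finger was found by pattern in 7 members, among them Zfp972, as read from the longest coding sequence. KRAB members had a median of 12 fingers, a transcript GC of 40.8% and a mean level of 3.37 RPKM, and the others 7 fingers, 52.3% and 5.92 RPKM. In pair 1, 84 of 109 KRAB members were lower, with a median log2 ratio of -0.14, and 58 of 107 others, with a median of -0.024. In pair 2, 60 KRAB members were lower, with a median of -0.024, and 77 others, with a median of -0.14. The order of the 2 kinds thus turned round between the pairs.

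Transcript GC separated the members in the same way. Of 77 members below 42% GC, 68 were lower in pair 1 and 33 in pair 2, with medians of -0.16 and 0.063. Of 77 members at 50% GC or above, 30 were lower in pair 1 and 66 in pair 2, with medians of 0.039 and -0.23. The 62 in between had medians of -0.064 and -0.035. All protein-coding genes tested showed the same order, with -0.15 and 0.12 for 917 genes below 42% and 0.034 and -0.21 for 5103 at 50% or above. Of those 917 genes 80.2% were lower in pair 1 and 33.0% in pair 2, beside 88.3% and 42.9% of the members below 42%. Of the 5103 genes 42.8% and 71.4% were lower, beside 39.0% and 85.7% of the members at 50% or above. Across 216 members GC and log2 ratio correlated with r = 0.56 in pair 1 and r = -0.46 in pair 2, and across 9677 protein-coding genes with r = 0.25 and r = -0.30. These describe genes that share libraries. After centring on genes of like GC, a step added after the data were seen, the members' medians were 0.0021 in pair 1 and -0.027 in pair 2. Then 57 were lower in both pairs and 50 higher, and the shares over all genes after centring are not given here.

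**Figure D5:**
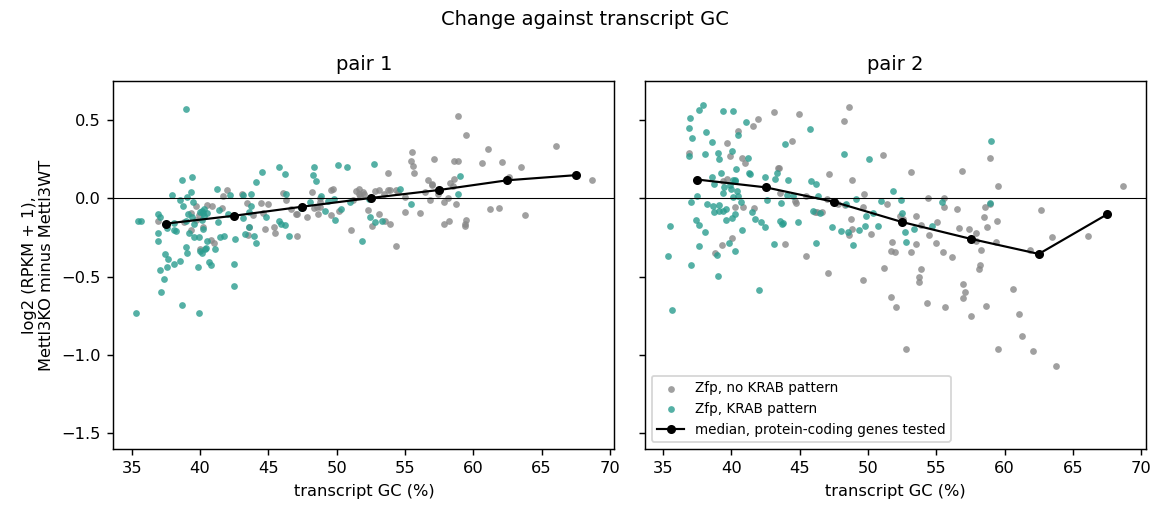
Log2 difference in RPKM + 1 between Mettl3KO and Mettl3WT (y axis) against transcript GC in percent (x axis) for 216 members, in pair 1 (left) and pair 2 (right). Black points join the medians of protein-coding genes tested in steps of 5% GC, the last from 25 genes. From the lowest step to that of 60% to 65% they climb from -0.16 to 0.12 in pair 1 and decline from 0.12 to -0.35 in pair 2.

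After this centring the cluster of 15 on chromosome 17 had a median of -0.24 in pair 1 and -0.14 in pair 2, and 9 of 15 lower in both pairs. KRAB members had centred medians of -0.021 and -0.051 and the others of 0.011 and -0.0039. Within the members below 42% GC, those with a KRAB pattern had medians of -0.20 and 0.032 (n = 61) and those without of -0.12 and 0.18 (n = 16).

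Motif content gave a weaker relation. GGACT, a common form of the m6A consensus, occurred at a median of 0.81 per kb of member transcripts against 1.05 per kb in protein-coding genes tested. Its density correlated with the log2 ratio across members with r = 0.17 in pair 1 and r = -0.099 in pair 2. The number of fingers gave r = -0.23 and 0.062. A motif count is no measure of methylation, which was not measured in these libraries.

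The corepressors that KRAB proteins call upon were read from the same fit over all genes, and 0 of 21 passed, against 0.0425% of all genes. In both pairs 13 were lower, or 61.9% against 30.8% of all genes tested, and 4 higher, or 19.0% against 19.1%. Their median log2 ratios were -0.049 in pair 1 and -0.22 in pair 2, and the list was not tested as a whole. Trim28, the scaffold, had 43.9 against 38.6 (pair 1) and 46.4 against 32.8 RPKM (pair 2). In the same order Setdb1, the histone methyltransferase, had 14.4 against 15.2 and 9.61 against 10.4 RPKM. Sumo2, the modifier through which Trim28 binds Setdb1, had 66.1 against 60.6 and 42.9 against 23.3 RPKM, and the histone deacetylase Hdac1 had 54.4 against 42.8 and 43.1 against 34.7 RPKM. Chd4, the remodeller of the same repressive complex, had 40.3 against 38.4 and 29.3 against 22.1 RPKM.

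Other zinc finger families gave 0 calls as well. Medians in pair 1 and pair 2 were 0.032 and -0.10 for 29 Zbtb genes, 0.035 and -0.16 for 14 Zscan and Zkscan genes, 0.11 and 0.023 for 10 Klf genes and -0.0028 and -0.23 for 3 Ikzf genes. Of these, Zbtb18, a neuronal repressor, was the highest Zbtb gene with 55.7 against 57.0 and 32.7 against 32.02 RPKM. Klf6, an immediate early factor, was the highest Klf gene with 167 against 207 and 141 against 155 RPKM. Differences between the families were not tested.

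The libraries of a pair differed in other ways too. Low values were whole multiples of 1 read at library sizes of 31220000 to 35550000 reads, with 97.9% to 99.5% of them within 0.1 reads of a whole number. All 8 dendritic cell markers were found, with Ccr7 at 948 to 1617 RPKM, and their sum was 4754 against 4094 (pair 1) and 7480 against 4402 RPKM (pair 2). Itgax, which encodes CD11c, went the other way in pair 2, with 12.6 against 9.66 RPKM (pair 1) and 17.2 against 50.98 RPKM (pair 2), as did Irf4 in pair 2 with 10.9 against 15.6 RPKM. Flt3 and Batf3 went the other way in pair 1, with 13.6 against 15.7 and 89.1 against 114 RPKM. In each pair 6 of the 8 were lower in Mettl3KO. The sum of 12 granulocyte markers, 11 of them listed in pair 1 and 7 in pair 2, was 4488 against 7978 and 5846 against 3768 RPKM, so the sum moved in opposite directions. Of the 7 tested, 1 was lower in pair 1 and 5 in pair 2. S100a9 had 1237 against 2843 and 1844 against 2.57 RPKM, and S100a8 had 891 against 1768 and 1129 against 143 RPKM. Camp had 27.3 against 84.4 and 58.4 against 4.33 RPKM. Lcn2 was higher in both pairs, with 1970 against 2319 and 2687 against 3510 RPKM. It made up most of the granulocyte sum in Mettl3KO of pair 2. Mmp8 was lower in pair 1, with 54.1 against 34.7 RPKM, and had 80.1 against 81.1 RPKM in pair 2. The sum of 9 monocyte and macrophage markers was 4317 against 5230 and 11282 against 16158 RPKM, of which Lyz2 alone had 3361 against 4343 and 9144 against 12729 RPKM. Of these 9, 4 were lower in pair 1 and 1 in pair 2, with median log2 ratios of 0.0005 and 0.48. The sum of 4 genes of dividing cells was 10.9 against 13.1 and 17.3 against 12.05 RPKM. Of 4 mast cell and basophil markers, summing to 34.6 against 26.6 RPKM in pair 1, Kit alone is listed in pair 2, at 20.7 against 4.23 RPKM. Markers of B, T, NK and erythroid cells summed to at most 5.91 RPKM per list and library in pair 1, and none of them is listed in pair 2. In pair 1 Xist was at 0.0502 RPKM in Mettl3WT and 37.8 RPKM in Mettl3KO, and Ddx3y at 29.1 and 0.0243 RPKM. This is the pattern of a male Mettl3WT and a female Mettl3KO library, so sex and genotype cannot be told apart in pair 1. Neither gene is listed in pair 2. The 2 members on the X chromosome were Zfp182, with 9.92 against 7.81 RPKM (pair 1) and 5.52 against 4.08 RPKM (pair 2), and Zfp275, with 4.98 against 4.71 RPKM (pair 1) and 2.53 against 2.32 RPKM (pair 2). The 77 ribosomal protein genes had median log2 ratios of 0.039 in pair 1 and 0.46 in pair 2. The part of these differences in the values of the members was not tested.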

How the data were processed

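RNA was sequenced from 2 Mettl3WT and 2 Mettl3KO maDC libraries. The authors deposited RPKM per gene in 1 table per littermate pair, made with bcl2fastq, TopHat2 2.0.14 and Cuffnorm on mm10 according to the submitters' processing notes. The second table lists only genes above 1 RPKM in both libraries. The deposited log2 fold changes, p-values and q-values hold the authors' comparison of single libraries and were not used. Annotation, strandedness and handling of multiply mapped reads: not given in the sources used here.

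Values were analysed as log2(RPKM + 1), which understates changes of low genes. All genes averaging 1 RPKM or more were tested with limma 3.58.1 (R 4.3.3, intensity trend), pair as block, Benjamini-Hochberg adjustment. The study's methods describe the libraries as 2 littermate pairs, and same-numbered libraries deviated together (r = 0.70). The block leaves 1 residual degree of freedom, to which limma added 8.68. The script was run on simulated data with planted changes larger than the members' fitted ones, as a check of the code only.

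Members, gene lists and tests were chosen with earlier results of these data known. Named were members at least 1.5-fold changed in both pairs or in opposite directions, the 8 with the largest fitted difference either way among those of 1 direction in both pairs, the 5 highest, and those of the role list. Zfp52, Zfp53, Zfp160, Zfp182, Zfp275, Zfp784, Zfp865, Zfp942, Zfp943, Zfp946 and Zfp950 were named after their values were seen. GC, fingers, KRAB patterns (at most 4 of 14 residues in a 26-residue window differing) and shared 50-base words come from the longest coding transcript in GENCODE M21 (216 of 217 members matched). Library sizes were read from whole multiples in single-exon genes, where mates may count separately. The alternatives changed the pseudocount, filter, trend, scaling, gene set and block, left out each library, centred on like GC, or left out members with shared sequence.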

Additional observations from a re-analysis of the deposited data

Results flagged for a closer look

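Zfp69, a KRAB zinc finger gene of chromosome 4, is listed in the first table only and belongs to no comparison of the report. It stood at 2.03 RPKM in Mettl3KO replicate 1 against 0.952 RPKM in Mettl3WT replicate 1, a difference of 0.64 in log2(RPKM + 1). Of the 105 Zfp-named genes listed in that table alone it is the 1 gene at least 1.5-fold higher in Mettl3KO, while 2, Zfp30 and Zfp931, were at least 1.5-fold lower. With 1 library a group there is no test.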

How the results depend on the processing

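No member was called higher or lower under any alternative run. In the runs on all 4 libraries the lowest adjusted p of a member (limma) ranged from 0.463 with GC centring to above 0.999 without the block. Without the block for the littermate pairing the number of genes called over all genes went from 5 to 0, and the members' median log2 change was -0.082 with and without it. Calls over all genes numbered 1 with a pseudocount of 0.1, 1 with median centring, 42 with the 10027 protein-coding genes only and 8 with GC centring, which ran on the 9677 of them with a matched transcript and so changed the gene set too. Leaving out 1 library in turn, with no block, so that the lone library is assumed to vary like the others, gave 1 to 118 calls and a median change of the members from -0.26 to 0.11. The sign there depended on the library left out: it was positive without Mettl3WT replicate 1 or Mettl3KO replicate 2.

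The members' median log2 change, -0.082, became -0.099 with the smaller pseudocount, -0.12 over the 93 members with a mean of at least 5 RPKM, -0.035 with median centring, -0.030 with GC centring and -0.082 without the 22 members with shared sequence (from -0.0824 to -0.0819). In pair 1 and pair 2 the median ratios became -0.088 and -0.087 (pseudocount), -0.048 and -0.14 (mean of at least 5 RPKM), -0.060 and -0.00028 (median centring), 0.0021 and -0.027 (GC centring) and -0.080 and -0.082 (shared sequence left out). KRAB members had -0.021 and -0.051 and the others 0.011 and -0.0039 with GC centring. Members higher in both pairs numbered 10 and lower 37 over the 93 members. With median centring 34 were higher and 62 lower, against 20 and 84 without it, and 109 of the 217 were lower in pair 2. With GC centring 50 were higher and 57 lower, and shares over all genes after either centring are not given here. The cause was not tested. Allowing 1 more residue of the KRAB pattern to differ left the same 109 members. GC centring and leaving out shared sequence were chosen after the data were seen.

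The design has 2 pairs, and each table was normalised on its own. The libraries of the first pair differ in sex-linked transcripts, so sex and genotype cannot be told apart there. Members at 1 RPKM or below in either library of pair 2 were not analysed here. Counting error alone had a median SE of 0.086 in pair 1 and 0.10 in pair 2 on the log2 scale, so 2 such SEs were passed by 97 and 125 members, a statement on these libraries only.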

Other observations

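Of the 105 Zfp-named genes listed in the first table alone, 21 were above 1 RPKM in both libraries of pair 1, and 15 of those 21 were lower in Mettl3KO. Zfp366, known as a transcription factor of dendritic cells, stood at 11.03 RPKM in Mettl3WT and 10.2 RPKM in Mettl3KO. Over all 105 the median log2 ratio was 0.00082, with 51 lower and 54 higher, at a median level of 0.568 and 0.534 RPKM. Zfp36, left out of the members, stood at 336 RPKM in Mettl3WT against 423 in Mettl3KO of pair 1 and at 393 against 206 RPKM in pair 2, so it too went in opposite directions. These values have no test.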
